A study of Homo sapiens with 18 samples.

Results

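The cytosolic ribosomal protein genes are the genes for the proteins of the 40S and 60S ribosomal subunits outside mitochondria. They were picked by gene symbol, RPS or RPL followed by a number with an optional suffix, with RPLP0, RPLP1, RPLP2 and RPSA added. The rule uses no measured value, but it was set with earlier results of these data known. The symbols picked out 85 of 28394 genes, of which 77 are core genes and 8 are paralogs, related copies whose symbols end in L, L1 or AL (RPS27L, RPL22L1, RPL39L, RPL3L, RPL10L, RPL26L1, RPL36AL and RPL7L1). The symbol pattern misses some genes of the same subunits, among them FAU and RACK1, which are given separately.

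The cells were HEK293T, a long-established line from human embryonic kidney that carries the SV40 large T antigen. Stable lines held 1 of 3 constructs under a doxycycline-inducible promoter: ChFP, the negative control in which GFP-P2A is followed by a red fluorescent protein; GFP-P2A before a poly-adenylate tract; and 102xPR after GFP-P2A, which encodes proline-arginine dipeptide repeats of the kind made from the C9orf72 repeat of ALS and frontotemporal dementia. Each line was left uninduced or given doxycycline for 48 h (500 ng/μl as labelled), with 3 libraries in each of the 6 groups, and all groups carry a construct that begins with GFP-P2A, the uninduced cells included. The question was whether stalling of ribosomes on poly-adenylate and on poly-PR gives the same expression response. The labels do not say whether a line was 1 clone, nor whether the 3 libraries of a group came from separate cultures, so p-values measure the spread between these libraries, which may be technical. Polyadenylated RNA came from a detergent lysate that held cycloheximide and was cleared by centrifugation.

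Ribosomal proteins are made in nearly equal numbers and assemble with ribosomal RNA in the nucleolus, and surplus copies are degraded. Most of their mRNAs begin with a 5′ terminal oligopyrimidine (TOP) tract, a C followed by an unbroken run of C and T, through which LARP1 and the kinase mTORC1 control their translation and stability. When ribosomes collide on a stalled one, ubiquitin ligases mark the 40S proteins RPS2, RPS3, RPS10 and RPS20, and the nascent chain is then handled on the freed 60S subunit.

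The start of the transcript is shown for the members that carry the findings: 4 core genes and 1 paralog that were lower in induced 102xPR cells, and 3 paralogs beside their parent genes, with RPL7L1, the paralog that was higher. Each line gives 30 bases, 5′ to 3′ on the transcribed strand, from 8 bases before the annotated start, taken from RefSeq (GRCh38.p14). RPL10 has 3 listed starts and RPL26L1 has 2, and the start with the longest pyrimidine run is shown for each. Capitals mark the unbroken pyrimidine run at the start or within 3 bases of it.
RPS21: agctgCTTCCTTTCTCTCTCgcgcgcggtg
RPLP2: ggcgCCTTCCTTTTCCTCCCTgtcgccacc
RPL10: aggagcgCCTCTTTCCCTTCggtgtggtga
RPS25: agcgCTTCCTTTTTgtccgacatcttgacg
RPL36AL: TTCCCTTTCCTgttaggcgagagctgcgaa
RPL22: ctcaCCTCCCTTTCTaactccgctgccgcc
RPL22L1: gtagCTTCCTCTCTgctctcgcggccgact
RPS27: ctttcgCTCCTTTCCggcggtgacgaccta
RPS27L: tgccgagCgcagatcgcttgcagcttgcta
RPL26: gtgtagTTCTCTTCCCTTTTgcggccatca
RPL26L1: caggggTCggcgaacgaaacgcggagctcg
RPL7L1: gcggcgCCgtagctaggagcggacgccata

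These stretches lie at chr20:62387095-62387124 (+) for RPS21, chr11:809959-809988 (+) for RPLP2, chrX:154398369-154398398 (+) for RPL10, chr11:119018322-119018351 (-) for RPS25 and chr14:49620605-49620634 (-) for RPL36AL. The pairs lie at chr1:6199574-6199603 (-) for RPL22 and chr3:170870174-170870203 (-) for RPL22L1, chr1:153990754-153990783 (+) for RPS27 and chr15:63157456-63157485 (-) for RPS27L, and chr17:8383172-8383201 (-) for RPL26 and chr5:172958721-172958750 (+) for RPL26L1. RPL7L1 starts within chr6:42879608-42879637 (+). RPL22L1 and RPL36AL open like core genes, with runs of 10 and 15 pyrimidines (11 of the 15 fall inside the bases shown), whereas RPS27L, RPL26L1 and RPL7L1 have runs of 1, 2 and 2. A promoter was listed for 68 of the 85 members, 62 core genes and 6 paralogs. Among the 62 core genes, 55 (88.7%) had a run of at least 5 pyrimidines that touched the 3 bases on either side of the start. Their median run was 11 bases, against 32% with such a run and a median of 3 over all 27305 genes listed. Where a gene had several listed starts, its longest run was taken. The word CTTTCC, its longer form with a further T in the run (CTTTTCC) or the variant in which a C interrupts that run (CTCTTCC), none of which contains another, occurred on either strand between 10 bases before and 20 bases after the start in 35 of the 62 core genes (56.5%), in 1 of the 6 paralogs (RPL36AL) and in 5.66% of all genes.

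The libraries held 15020739 to 27331102 counts, and each of the 71 well-counted core genes averaged between 5070 and 78492 counts a library. Of the 85 members, 76 core genes and 6 paralogs passed the filter on low counts; RPS18, RPL3L and RPL10L did not. The first principal component of the other genes held 57.9% of the variance and separated induced 102xPR from the other libraries. The second (7.55%) set apart 8 libraries, the set of 8 (ChFP uninduced 1 to 3, ChFP induced 3, poly-adenylate uninduced 2 and 3, and 102xPR induced 1 and 2), from the other 10, the set of 10. No label names these sets, and what they stand for is not known. They were drawn from the expression values of these same libraries, so adjusted p-values from fits with the set as a term may be too small. Genes of the mitochondrial genome took 4.46 to 7.15% of counts in the set of 8 and 2.96 to 5.16% in the set of 10. Members' levels move with the sets, so counts of core genes, and the members whose levels are given, are shown for the most part also with the set as a term of the model or within the set of 10, where induced 102xPR cells have only replicate 3, which is then assumed to vary like the other groups. Of the genes that mark HEK293 cells, NEFL, NEFM and PAX2 were all detected. Levels are given as CPM, counts scaled to a library total of 1000000.

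Core genes together took 7.47 to 8.67% of all counts. In the 102xPR line the share was 8.53, 7.80 and 7.98% in the uninduced libraries and 7.47, 7.68 and 7.96% in the induced ones, so the groups overlapped (8.10 ± 0.38% against 7.70 ± 0.24%, SD, n = 3, difference -0.40 points, exact two-sided permutation p = 0.2, where 0.1 is the smallest that 3 against 3 allows). In the poly-adenylate line the means were 7.99 ± 0.59% and 8.22 ± 0.18% (difference 0.23 points, exact permutation p = 0.5, n = 3), and in the ChFP line 7.61 ± 0.09% and 8.08 ± 0.38% (difference 0.48 points, exact permutation p = 0.2, n = 3). All 8 libraries of the set of 8 held 7.47 to 7.71% and all 10 of the other set 7.80 to 8.67%, so the share followed the sets more closely than the groups. Within a set the differences were -0.14 points in the 102xPR line (3 uninduced against 1 induced library), -0.45 in the poly-adenylate line (1 against 3) and 0.033 in the ChFP line (3 against 1), as the plot of shares by library shows.

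In induced 102xPR cells many core genes fell and few rose. Of 76 core genes tested, 32 fell, 4 rose and 40 did not pass the threshold, an adjusted p below 0.05 in edgeR's quasi-likelihood test. That is 42.1% of core genes that fell and 5.26% that rose, where 33.4% of all 15447 genes fell and 33.8% rose, so the share that rose was further from that of all genes than the share that fell. The median log2 fold change was -0.11 for core genes and -0.0098 for all genes tested. With library totals in place of TMM scaling 23 fell and 7 rose (30.9% and 36.1% of all genes) and the median was -0.074. Without uninduced replicate 1 or induced replicate 1, 21 fell (31.2% and 30.9% of all genes), and 2 rose without induced replicate 2 (31.5%) and 7 without induced replicate 3 (32.9%). Values for the 71 core genes other than the thinly counted ones ranged from -0.72 to 0.26. Of 30 genes for 40S proteins 16 fell and none rose (median -0.25), and of 46 for 60S proteins 16 fell and 4 rose (median -0.078). The 3 uninduced and 3 induced libraries did not overlap for 39 core genes, with 36 lower and 3 higher after induction, where all genes gave 34.6% and 35.4%. CPM is a share of the library, so fewer transcripts per cell, fewer cells that hold them and more of other RNA cannot be told apart. Markers of other cells also differed: 13 markers of blood cells, fibroblasts, hepatocytes and keratinocytes summed to 15.5 to 16.7 CPM in induced 102xPR libraries and to 21.5 to 29.3 in the other 15. Of the 4 that passed the filter, COL1A1 (18.4 to 20.2 CPM uninduced and 12.9 to 13.5 induced) and LUM (2.21 to 3.46 and 0.846 to 1.17) fell and ALB (0 to 0.040 and 0.697 to 1.21) rose, while CD3E and KRT14 were at 0 in every library. Of the HEK293 markers PAX2 fell by 0.32 on the log2 scale (adjusted p = 0.0237) and NEFL and NEFM did not pass. The part of other cells in the members' response was not tested.

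**Figure D1:**
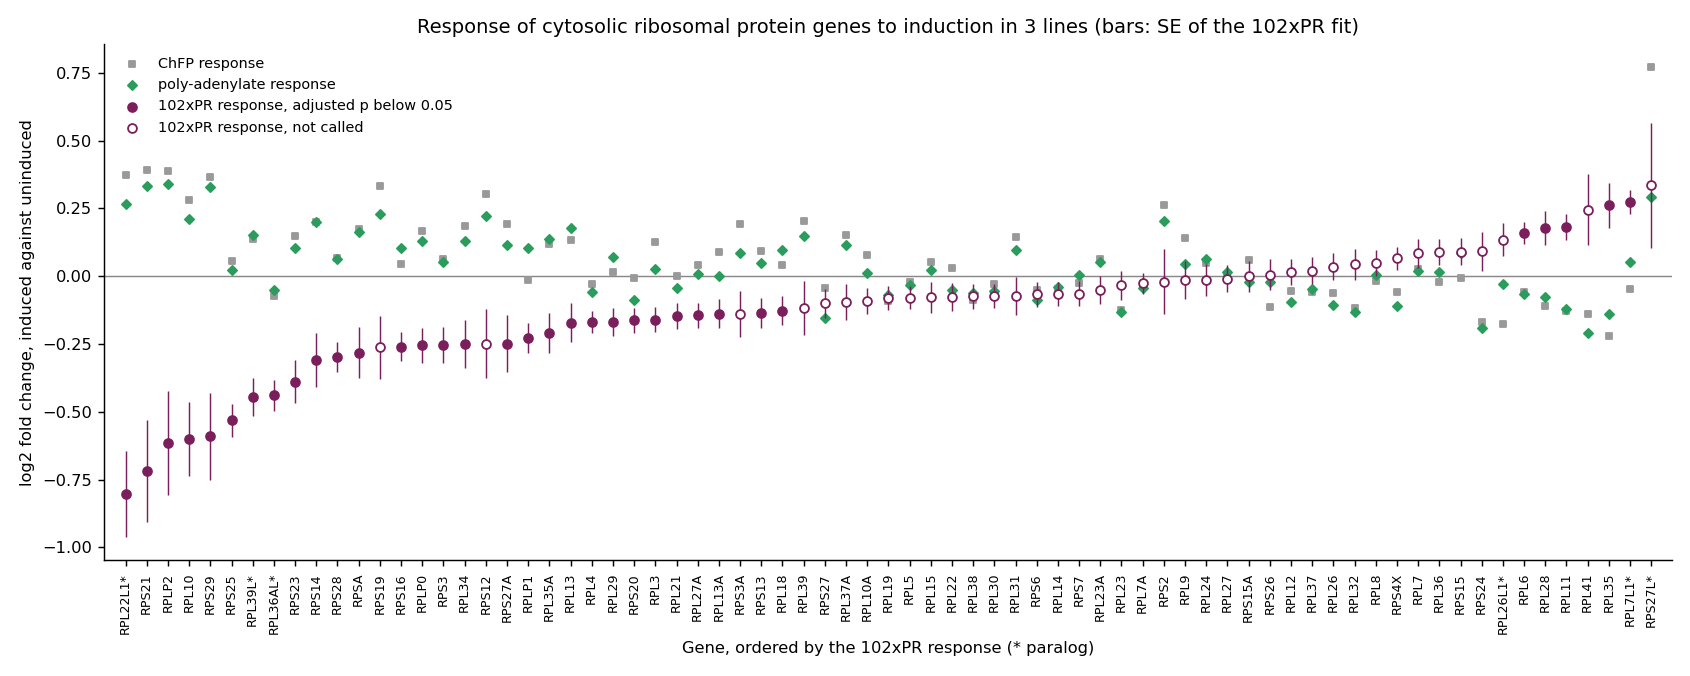
Log2 fold change on induction (vertical axis) of 67 well-counted core genes and 6 paralogs (asterisk), ordered by the 102xPR response; circles are 102xPR (filled where the adjusted p is below 0.05, bars are 1 SE), diamonds poly-adenylate and squares ChFP. The genes at the left, from RPL22L1 at -0.80 to RPS29 at -0.59, have ChFP and poly-adenylate values between 0.21 and 0.39.

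The largest falls among well-counted core genes were in RPS21, RPLP2, RPL10 and RPS29. RPS21, a small protein of the 40S subunit (chromosome 20, 62387103 to 62388520), stood at 553, 497 and 524 CPM in the uninduced 102xPR libraries and at 265, 287 and 405 in the induced ones (log2 fold change -0.72, SE 0.19, adjusted p = 0.00419). RPLP2 (chromosome 11, 809967 to 812876), an acidic protein of the stalk that recruits elongation factors, went from 924, 860.2 and 879 to 493, 518 and 729 CPM (log2 fold change -0.62, SE 0.19, adjusted p = 0.0129). RPL10 (chromosome X, 154398065 to 154402339), which joins the 60S subunit late in its maturation, went from 1905, 1762 and 1772 to 1067, 1105 and 1414 CPM (log2 fold change -0.60, SE 0.14, adjusted p = 0.00134). RPS29 (chromosome 14, 49570988 to 49598710), a zinc-binding 40S protein, went from 437, 404 and 423 to 239.7, 261 and 338 CPM (log2 fold change -0.59, SE 0.16, adjusted p = 0.0056). For all 4 genes the groups did not overlap, and induced replicate 3 stood well above induced replicates 1 and 2.

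The same step between libraries appeared in the lines without poly-PR. RPS21 was at 359, 355 and 368 CPM in uninduced and 522, 535 and 362 in induced ChFP cells, and at 529, 364 and 353 and 522, 538 and 509 in the poly-adenylate line. In both lines the lower values are those of the set of 8 and the higher ones those of the set of 10. Within each set the induced 102xPR libraries were the lowest: in the set of 8 the 2 of them had 265 and 287 CPM against 353 to 368 in the other 6, and in the set of 10 the single one had 405 against 497 to 553 in the other 9. RPLP2 gave the same picture, with 493 and 518 CPM against 562 to 628 in the set of 8 and 729 against 860.2 to 924 in the set of 10. RPL10 had 1067 and 1105 against 1368 to 1469, and 1414 against 1762 to 1929. RPS29 had 239.7 and 261 against 279 to 288, and 338 against 399.6 to 437. The falls were smaller but still called with the set as a term, at -0.37 for RPS21, -0.25 for RPLP2, -0.34 for RPL10 and -0.28 for RPS29, with adjusted p from 6.94e-09 to 4.29e-06. Within the set of 10 alone they were -0.38, -0.29, -0.36 and -0.32 in that order. The call for RPLP2 ended without induced replicate 1 or induced replicate 2 in the fit with no set term.

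**Figure D2:**
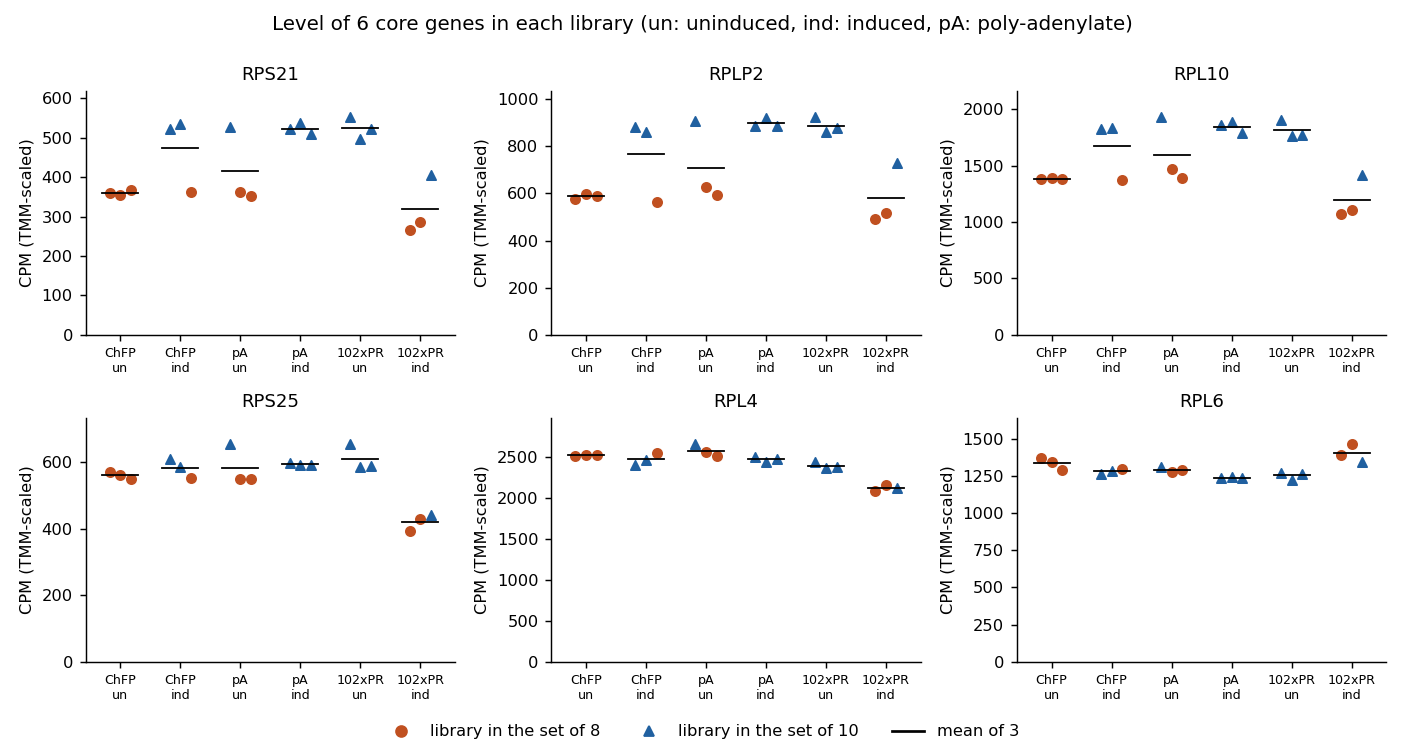
Level in CPM (TMM-scaled, axes from 0) of RPS21, RPLP2, RPL10, RPS25, RPL4 and RPL6 in each library, by group (un, uninduced; ind, induced; pA, poly-adenylate), with a line at the mean of 3. RPS21, RPLP2 and RPL10 step between the sets in every line, RPS25 and RPL4 much less, and the 3 induced 102xPR libraries are the lowest of their own set for the first 5 genes.

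Other members fell with a smaller step between the sets or none. RPS25 (chromosome 11, 119015717 to 119018343), a protein of the 40S head needed at some viral internal ribosome entry sites and for translation of C9orf72 repeats, was at 653, 584 and 588 CPM uninduced and 392, 429.6 and 440.4 induced (log2 fold change -0.53, SE 0.061, adjusted p = 6.10e-08). All 15 other libraries of the series held 548 to 653 CPM, above each induced 102xPR library, and the fall was -0.43 with the set as a term and -0.47 within the set of 10. RPL4 (chromosome 15, 66498015 to 66504855), which reaches into the exit tunnel, differed by -0.0012 between the sets and went from 2431, 2364 and 2375 to 2087, 2161 and 2125 CPM (log2 fold change -0.17, SE 0.040, adjusted p = 6.60e-04). Its value was -0.17 with the set as a term and -0.17 within the set of 10. RPS28, a small 40S protein near the mRNA exit, went from 594, 526 and 551 to 437, 469 and 452 CPM. Its induced 102xPR libraries were again below the 15 others, which held 499 to 594 CPM, and the fall was -0.30, -0.23 with the set as a term and -0.31 within the set of 10. RPS23, a protein of the decoding centre, went from 1031, 969 and 993 to 691, 746 and 849.5 CPM (log2 fold change -0.39, SE 0.079, adjusted p = 2.24e-04) and kept -0.22 with the set as a term.

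Across the 71 well-counted core genes, the set effect (set of 10 minus set of 8, log2) ranged from -0.33 to 0.58 with a median of 0.11, was above 0.3 in 9 genes and below -0.3 in 1. Its Pearson correlation with the 102xPR response was -0.78 without the set term and -0.27 with it, across genes that share the same libraries. The first value is in part built in, because the uninduced and induced 102xPR libraries are unevenly spread over the sets. The second pairs 2 coefficients of the same fit. Neither value tests the part of the sets in the response. With the set as a term 23 core genes fell and 6 rose (32.3% and 32.8% of all genes), the median was -0.048, and the median was -0.098 for 40S and -0.031 for 60S genes. Within the set of 10, 21 fell and 1 rose (27.7% of all genes in each direction). Of the 32 that fell over all libraries, 19 fell also with the set term, and 16 fell in all 3 fits, among them RPL4, RPL10, RPL17, RPLP1, RPLP2, RPS3, RPS16, RPS20, RPS21, RPS23, RPS25, RPS28 and RPS29. The calls lost with the set term included RPL13, RPL13A, RPL18, RPL21, RPL27A, RPL29, RPL34, RPL35A, RPS10, RPS13, RPS27A and RPSA, with values from -0.13 (RPL18) to -0.56 (RPS10) in the fit without it. RPSA, also known as the laminin receptor, was one of these, at -0.28 (adjusted p = 0.0149) without and -0.086 (adjusted p = 0.0786) with the term. In the set of 8 the 102xPR line has 2 induced and no uninduced libraries, so within that line the set and induction are compared separately only in the set of 10, through induced replicate 3. The fit with the term takes the size of the step from the other lines as well.

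The 4 core genes that rose in induced 102xPR cells all encode 60S proteins. RPL6, which lies on the outer face of the 60S subunit, was at 1271, 1223 and 1264 CPM uninduced and 1393, 1462 and 1345 induced (log2 fold change 0.16, SE 0.041, adjusted p = 0.00138), and RPL11 at 1376, 1279 and 1339.5 and 1561, 1569 and 1397 (log2 fold change 0.18, SE 0.049, adjusted p = 0.00221). Both remained called with the set as a term (0.14 and 0.12) and neither within the set of 10 (0.097 and 0.064). Their induced levels overlapped the other 2 lines, where RPL6 held 1233 to 1368 and RPL11 1314 to 1556 CPM. By set, RPL6 in induced 102xPR had 1393 and 1462 against 1277 to 1368 in the set of 8. In the set of 10 it had 1345 against 1223 to 1312. RPL11 had 1561 and 1569 against 1453.7 to 1556 in the set of 8. In the set of 10 its 1397 lay inside the 1279 to 1470.5 of the others. RPL28 went from 644, 616 and 646 to 719, 779 and 660.1 CPM (log2 fold change 0.18, SE 0.063, adjusted p = 0.0147) and RPL35, at the mouth of the exit tunnel, from 960.3, 855 and 913 to 1164, 1186 and 920.2 (log2 fold change 0.26, SE 0.082, adjusted p = 0.0085). RPL28 and RPL35 were lower in the set of 10 (-0.18 and -0.25), were not called with the set as a term (0.055, adjusted p = 0.289, and 0.089, adjusted p = 0.105), and lost the call also without induced replicate 2. RPL28 lost it too without uninduced replicate 2.

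Of the genes for the 4 40S proteins that receive ubiquitin on collided ribosomes, 3 fell, where 33.4% of all genes fell. RPS3, at the mRNA entry, went from 1928, 1798 and 1804 to 1452, 1526 and 1662 CPM (log2 fold change -0.25, SE 0.067, adjusted p = 0.002) and RPS20 from 548, 488 and 514 to 471, 482 and 431 (log2 fold change -0.16, SE 0.047, adjusted p = 0.00384), and both remained called with the set term and within the set of 10. RPS10 fell by 0.56 on the log2 scale (adjusted p = 0.00667), but it is one of the thinly counted members described further on and was not called with the set term (adjusted p = 0.0528). RPS2, at the mRNA entry, did not pass. Its level was 4258, 3786 and 3893 CPM uninduced and 3508, 3658 and 4612 induced, with overlapping groups (log2 fold change -0.019, SE 0.12, adjusted p = 0.897). With the set as a term RPS2 rose by 0.22 (SE 0.045, adjusted p = 8.39e-05), and within the set of 10 by 0.21 (adjusted p = 0.00998): the induced libraries had 3508 and 3658 CPM against 2958 to 3188 in the other 6 libraries of the set of 8, and 4612 against 3786 to 4258 in the other 9 of the set of 10.

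The genes for all 3 stalk proteins fell, in a response where 33.4% of all genes fell and 33.8% rose. RPLP0, the base of the stalk, went from 1617, 1507 and 1501 to 1200.0, 1270.3 and 1408 CPM (log2 fold change -0.25, SE 0.065, adjusted p = 0.00149), and RPLP1, the partner of RPLP2, from 1668, 1511 and 1606 to 1323, 1389 and 1372 (log2 fold change -0.23, SE 0.054, adjusted p = 6.97e-04). The 3 stayed called with the set as a term, at -0.12 for RPLP0, -0.16 for RPLP1 and -0.25 for RPLP2, and within the set of 10 RPLP0 was not called (-0.14, adjusted p = 0.0625). The 5S ribonucleoprotein pair, which binds MDM2 when it is free of ribosomes, had no called fall: RPL11 rose, as given above, and RPL5 had 2072, 2033 and 2040.2 CPM uninduced and 1864, 1939 and 2011 induced (log2 fold change -0.080, SE 0.042, adjusted p = 0.0979). Of 7 genes for 60S proteins that line the exit tunnel or its mouth, RPL4 and RPL17 fell, RPL35 rose and RPL19, RPL23A, RPL31 and RPL39 did not pass (-0.080, -0.051, -0.074 and -0.12). RPL19 fell with the set as a term (-0.12, adjusted p = 0.0101), and RPL35 was not called there.

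The set term also brought calls that the fit without it did not make. RPL7, RPL9, RPS2 and RPS15 rose, at 0.17, 0.13, 0.22 and 0.12. RPL19, RPL38, RPS6 and RPS27 fell, at -0.12, -0.13, -0.12 and -0.17. RPS6 is the substrate of S6 kinase and a common readout of mTORC1 activity at the protein level; its mRNA had a value of -0.067 (adjusted p = 0.202) without the term. RPL19, RPL38, RPS6 and RPS27 were called within the set of 10 also (-0.16, -0.16, -0.19 and -0.24), as was RPS2, while RPL7, RPL9 and RPS15 were not.

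Few reads were assigned to 6 core genes, and their values are uncertain. Among them RPS18 averaged 0.722 counts a library, RPS9 46.0, RPL36A 163, RPS10 293 and RPL17 354, against at least 5070 for the other 71, although their proteins are as abundant in the ribosome. Readthrough genes that overlap RPL17, RPL36A and RPS10 are listed in the table at 0 counts in every library. RPS9 ranged from 11 to 296 counts between libraries. It was highest in ChFP uninduced 1 (11.9 CPM) and poly-adenylate uninduced 3 (8.90 CPM). The induced 102xPR libraries were the lowest, with 0.460 to 0.652 CPM against 0.754 or more in the others. RPL17 went from 20.5, 21.5 and 23.0 to 11.2, 11.8 and 15.2 CPM and RPS10 from 18, 19.1 and 19.6 to 10.2, 12.2 and 16.1, falls of -0.77 and -0.56 on the log2 scale, and both also stepped between the sets (0.69 and 0.54). Without these genes 30 of 71 core genes fell, 4 rose and the median was -0.095.

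The paralogs changed in both directions: of 6 tested, 3 fell, 1 rose and 2 did not pass in the 102xPR response. Over all genes 33.4% fell and 33.8% rose. Reads that fit a paralog and its parent equally may have been dropped or split between them, so the level of RPS27L, RPL39L, RPL26L1 and RPL36AL depends on a counting step whose setting is not given. RPL22L1 (chromosome 3, 170864875 to 170870195), the copy of RPL22 whose mRNA the RPL22 protein is known to repress, was at 52.2, 46.2 and 50.3 CPM uninduced and 26.3, 26.5 and 32.7 induced (log2 fold change -0.80, SE 0.16, adjusted p = 4.10e-04). It stepped between the sets like RPS21 (0.47), with 33.3, 33.1 and 31.6 CPM in uninduced and 47.0, 45.2 and 35.0 in induced ChFP cells. With the set as a term the fall was -0.49 (SE 0.072, adjusted p = 2.74e-07) and within the set of 10 it was -0.61. Its parent RPL22 had 431, 414 and 429 CPM uninduced and 398, 403 and 406 induced, with the induced libraries all lower but no call (log2 fold change -0.077, SE 0.051, adjusted p = 0.184).

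RPL36AL (chromosome 14, 49618530 to 49620626), a near copy of RPL36A, fell too, with a smaller step between the sets in the other direction (-0.15). Outside induced 102xPR cells, the set of 8 held 184 to 199.8 CPM of RPL36AL and the set of 10 held 164 to 181. RPL36AL had 181, 164 and 171 CPM in uninduced and 132, 133 and 115 in induced 102xPR cells (log2 fold change -0.44, SE 0.057, adjusted p = 3.63e-07), and the 15 other libraries held 164 to 199.8. The fall was larger with the set as a term (-0.55) and within the set of 10 (-0.59). The parent RPL36A was thinly counted, at 7.66, 8.69 and 8.30 CPM uninduced and 8.24, 6.82 and 7.56 induced, and was not called (-0.12, adjusted p = 0.296). RPL39L (chromosome 3, 187120948 to 187139496), a copy of the tunnel protein RPL39 best known from the testis, went from 34.3, 29.9 and 30.6 to 23.1, 23.6 and 22.9 CPM (log2 fold change -0.45, SE 0.070, adjusted p = 5.73e-06), below the 26.3 to 34.3 of the 15 other libraries. The fall was -0.38 with the set as a term and -0.47 within the set of 10. RPL39 itself had 753, 672 and 688 CPM uninduced and 602, 635 and 712 induced, overlapping, and was not called (-0.12, adjusted p = 0.312).

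RPL7L1 (chromosome 6, 42879616 to 42889900), a nucleolar relative of RPL7 that takes part in making the 60S subunit, was the paralog that rose. It had 444, 464 and 471 CPM uninduced and 533, 552 and 580.3 induced (log2 fold change 0.27, SE 0.044, adjusted p = 9.28e-06), and each induced library was above the 408 to 471 of the 15 others. The rise was 0.33 with the set as a term and 0.33 within the set of 10. RPL7 had 794, 718 and 756 CPM uninduced and 781, 803 and 820.1 induced, overlapping (0.084, adjusted p = 0.168).

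RPL26L1 (chromosome 5, 172954094 to 172969771), a near copy of RPL26, had 92.1, 84.4 and 92.1 CPM uninduced and 101, 104 and 89.1 induced and just missed the threshold (log2 fold change 0.13, SE 0.060, adjusted p = 0.0512). The parent RPL26 had 0.035 (adjusted p = 0.539). RPS27L (chromosome 15, 63148249 to 63157477), a copy of RPS27 known as a p53 target, varied most between libraries of a group, with 80.3, 52.4 and 56.4 CPM uninduced and 91.1, 67.5 and 81.0 induced (log2 fold change 0.34, SE 0.23, adjusted p = 0.214). It rose with the set as a term (0.59, adjusted p = 0.0459), was not called within the set of 10 (0.35, adjusted p = 0.352), and its parent RPS27 had -0.10. In the ChFP line RPS27L was at 56.2, 41.2 and 42.5 CPM uninduced and 95.8, 78.7 and 64.7 induced, with no overlap and no call (log2 fold change 0.77, SE 0.24, adjusted p = 0.108). Replicate 1 held the highest RPS27L value in each of the 6 groups. RPL3L, best known from muscle, and RPL10L, best known from the testis, did not pass the filter, and their highest values in any library were 0.480 and 0.199 CPM.

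Induction of the other constructs gave no called change in any member in the edgeR fit of all libraries. In the poly-adenylate response 0 of 76 core genes and 0 of 6 paralogs passed in edgeR (1.08% of all genes did, 0.816% up and 0.265% down), 10 core genes and 1 paralog had an unadjusted p below 0.05 (17.3% of all genes), and DESeq2 called 1 core gene as risen. The smallest adjusted p was that of RPS10, a thinly counted gene (0.135). The median was 0.021 for core genes and -0.0014 for all genes. In the ChFP response again 0 of 76 core genes and 0 of 6 paralogs passed in edgeR (2.01% of all genes, 1.13% up and 0.887% down). There 13 core genes and 3 paralogs had an unadjusted p below 0.05 (19.6% of all genes), and DESeq2 called no core gene but 1 paralog. The ChFP median was 0.036 for core genes and 0.011 for all genes. The groups did not overlap for 18 core genes in the poly-adenylate line (15 lower and 3 higher after induction, against 9.02% and 11.4% of all genes) and for 12 in the ChFP line (6 in each direction, against 12.9% lower and 11.4% higher).

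Leaving out the library whose set differs from that of the rest of its group changed these counts. In the poly-adenylate line uninduced replicate 1 is the only library of its group in the set of 10, and without it 12 core genes rose (5.51% of all genes). In the ChFP line induced replicate 3 is the only one of its group in the set of 8, and without it 3 core genes rose and 4 fell (4.38% and 4.53% of all genes). RPS21, RPLP2, RPL10 and RPS29 had values of 0.33, 0.34, 0.21 and 0.33 in the poly-adenylate response and of 0.39, 0.39, 0.28 and 0.36 in the ChFP response, with adjusted p from 0.238 to 0.443. Under the fit with the set term those of the poly-adenylate response were -0.0095, -0.018, -0.050 and 0.028 and those of the ChFP response 0.00051, -0.027, -0.0073 and 0.023. No core gene or paralog was called in either line with that term (0.0129% of all genes rose and 0.0712% fell in the poly-adenylate line, 0.524% and 0.531% in the ChFP line), and the medians of core genes were -0.035 and -0.025.

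Whether the 102xPR response differed from the other responses was tested as the difference of responses. Against ChFP, 35 core genes had a lower and 5 a higher response to 102xPR (30.3% and 28% of all genes, 58.3% in all), with a median difference of -0.16. Against poly-adenylate, 28 were lower and 8 higher (29.6% and 28.9% of all genes, 58.4% in all), with a median of -0.10. Among the paralogs 3 were lower in each difference, and 2 were higher against ChFP and 1 against poly-adenylate. Without 102xPR uninduced replicate 1, 23 core genes were lower against ChFP (28.3% of all genes), and without 102xPR induced replicate 3, 10 were higher (28.1%). Against poly-adenylate the 8 higher ones became 4 without 102xPR induced replicate 2 (26.7% of all genes), and 5 without 102xPR uninduced replicate 2 (27.1%), 102xPR induced replicate 1 (26.7%) or poly-adenylate uninduced replicate 3 (26.3%). Both differences use the same 102xPR libraries, so they are given side by side and not as support for each other. RPL22L1 had the largest difference among the well-counted members, -1.18 (SE 0.23, adjusted p = 4.42e-04) against ChFP and -1.07 (SE 0.22, adjusted p = 9.19e-04) against poly-adenylate. RPS21 followed with -1.11 and -1.05, RPLP2 with -1.0 and -0.96, RPS29 with -0.96 and -0.92, and RPL10 with -0.88 and -0.81. All 5 were higher in the set of 10, which holds 3 uninduced and 1 induced 102xPR libraries but 0 uninduced and 2 induced ChFP libraries and 1 uninduced and 3 induced poly-adenylate libraries. The differences shrank with the set as a term, to -0.54 and -0.48 for RPL22L1, -0.37 and -0.36 for RPS21, -0.23 and -0.23 for RPLP2, -0.31 and -0.31 for RPS29 and -0.33 and -0.29 for RPL10, all still called.

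Fitted with the set as a term, 11 core genes were lower and 4 higher against ChFP (24.1% and 23.3% of all genes), and 12 lower and 6 higher against poly-adenylate (24.4% and 23.6%). Called in both differences, with and without the term, were 8 core genes with a lower response (RPL10, RPLP2, RPS16, RPS21, RPS23, RPS25, RPS28 and RPS29) and 2 with a higher one (RPL6 and RPL11). The same held for the paralogs RPL22L1, RPL36AL and RPL39L with a lower and RPL7L1 with a higher response. RPS25 had -0.59 against ChFP and -0.55 against poly-adenylate, -0.38 and -0.35 with the term. RPL36AL had -0.37 and -0.39, and -0.57 and -0.60 with the term. RPL26L1 passed against ChFP (0.31, adjusted p = 0.00336; 0.16, adjusted p = 0.107, against poly-adenylate) and in neither with the term. RPL39L had -0.58 and -0.60, and RPL7L1 0.32 and 0.22. RPL6 had 0.22 and 0.22, and RPL11 0.31 and 0.30. Of the other rises, RPL28 (0.29 and 0.26), RPL35 (0.48 and 0.40) and RPS24 (0.26 and 0.28) were called in both differences and in neither with the term. Against poly-adenylate the called rises also held RPL41 (0.45) and RPS4X (0.18). Between the poly-adenylate and ChFP responses no difference passed in edgeR for the 76 core genes or 6 paralogs (0.0259% of all genes passed), none of them had an unadjusted p below 0.05 (10.9% of all genes), and DESeq2 called none; with the set as a term the counts were also 0 (1.07% of all genes higher and 0.311% lower), with 1 core gene and 2 paralogs at an unadjusted p below 0.05 (16% of all genes).

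Counts for genes that work with the ribosomal proteins are to be read against the 33.8% of all genes that rose and 33.4% that fell in the 102xPR response, or 32.8% and 32.3% with the set as a term. Among the ribosomal genes that the symbol pattern misses, FAU, whose product is processed to RPS30, fell, with -0.29 (SE 0.071, adjusted p = 9.49e-04), while RACK1, the 40S scaffold at the mRNA exit, had 0.021 (SE 0.042, adjusted p = 0.674). Of 19 other mRNAs with a TOP start, 4 rose and 6 fell, and 6 rose and 7 fell with the term. The histone chaperone NAP1L1, which is also on the list of ribosomal protein chaperones, had -0.55 (SE 0.047, adjusted p = 5.31e-10), the splicing regulator HNRNPA1 -0.49 (SE 0.045, adjusted p = 1.41e-09) and the initiation factor subunit EIF3E 0.31 (SE 0.048, adjusted p = 4.58e-06). Of 12 genes on a list of chaperones, importers and assembly factors of ribosomal proteins, 5 rose and 3 fell, the same numbers as with the term. RPF2 and RRS1, which bring the 5S ribonucleoprotein into the 60S precursor, rose by 0.52 (SE 0.048, adjusted p = 1.47e-09) and 0.46 (SE 0.051, adjusted p = 3.14e-08), and TSR2, the chaperone of RPS26, by 0.34 (SE 0.049, adjusted p = 1.60e-06).

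Of 13 regulators of TOP mRNAs and mTORC1, 5 rose and 4 fell, near the shares of all genes, and 6 rose and 4 fell with the term. TSC1, an inhibitor of mTORC1, changed by 0.68 (SE 0.063, adjusted p = 1.50e-09), EIF4EBP2, a repressor of cap-dependent initiation, by -0.45 (SE 0.043, adjusted p = 3.37e-09), LARP4, which binds poly(A) tails, by 0.32 (SE 0.056, adjusted p = 2.21e-05), and MTOR itself by 0.32 (SE 0.060, adjusted p = 5.07e-05). Of 7 genes on the axis from the free 5S ribonucleoprotein through MDM2 to p53, 6 rose and none fell, and 7 rose with the term: SESN2 had 1.54 (SE 0.086, adjusted p = 1.09e-11), GADD45A 1.99 (SE 0.11, adjusted p = 1.41e-11), MDM2 0.37 (SE 0.054, adjusted p = 1.91e-06) and SESN1 0.38 (SE 0.094, adjusted p = 0.00136). SESN2 and GADD45A are also known targets of the integrated stress response. The activity of p53 was not measured, and its part in these rises was not tested. Of 76 mitochondrial ribosomal protein genes tested, 36 rose and 21 fell (42 and 15 with the term), with a median of 0.13, so their median lay on the other side of 0 from that of the cytosolic core genes. Of 17 rows named as ribosomal protein pseudogenes 2 rose and 3 fell (2 and 2 with the term). The 13 mitochondrially encoded mRNAs, whose share moves with the sets, gave 0 rises and 0 falls over all libraries (1 at an unadjusted p below 0.05) and 13 falls with the set as a term.

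The sequence at the start was set beside the 102xPR response. Of 34 tested core genes with one of the 3 TOP words near the start, 16 fell and 3 rose, with a median of -0.13 over all libraries and -0.070 with the set as a term. Of 27 without one, 11 fell and 1 rose, with medians of -0.077 and -0.048. Over all genes 33.4% fell and 33.8% rose. Of the genes that fell, RPS29 has a run of 2 pyrimidines at the listed start and no TOP word there, and RPL4 has a run of 1 but a TOP word near the start. RPL39 and RPL7A, with runs of 22 and 25 and a TOP word each, did not pass. In the bases from 250 before to 50 after the start, the word CCGGAAG of ETS factors occurred on either strand in 22 of 62 core genes (35.5%) and 2 of 6 paralogs (RPL7L1 and RPS27L), against 12.2% of all genes. The word TGATGNAA, where N is any base, of ATF4 and its partners occurred in 2 core genes (3.23%, RPL31 and RPS23) and in none of the 6 paralogs, against 4.46% of all genes. These matches describe letters in a window and no binding was measured.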

How the data were processed

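Poly(A)-selected RNA of 18 HEK293T libraries, 3 per group, was sequenced as single reads of 100 bp. The authors deposited raw whole-number counts for each gene and library. Per the submitters' processing notes, reads went through bcl2fastq 2.20.0.422 and cutadapt 3.4, the aligner was HISAT2 2.1.0 on build hg38, genes were counted by featureCounts, and DESeq2 1.30.1 was also used. Annotation, strand and multi-mapping settings: not given in the sources used here. Values of overlapping genes and near-identical copies are therefore uncertain. Tables of the authors' own comparisons were deposited too and not used, since their contrasts are not stated.

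The table held 28394 rows, 550 of them without a symbol (0.0410% of counts). Rows without a symbol entered the filter and the fit like the others. The filter filterByExpr (minimum count 10) left 15447 genes. Groups of all 18 libraries entered 1 edgeR 4.0.16 quasi-likelihood fit (R 4.3.3, TMM scaling, robust dispersion, common biological coefficient of variation 5.75%), with Benjamini-Hochberg adjustment of p over all genes tested and a threshold of 0.05. Of 6 comparisons, 3 were responses to induction and 3 were differences of responses. A standard error is the size of the log2 fold change divided by the root of its F statistic. CPM values are TMM-scaled and not divided by length, so they are compared within a gene only. The share of counts on core genes was compared with an exact two-sided permutation test. The fit was tested on simulated data. No replicates of a group agreed within sampling noise.

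Alternatives were DESeq2 1.42.0, library totals, TMM factors computed without the members, no filter, a minimum count of 50, a replicate block, only the lines compared, leaving out each replicate, a term for the 2 library sets, and the libraries of 1 set alone. The sets were divided by the sign of the second principal component of log2 CPM (prior count 2) over genes outside the members. The share of counts within a set was added after seeing the data.

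The members, lists and alternatives were chosen with earlier results of these data known. Core genes named are those of the role lists and up to 10 with the largest called change in each direction. Each paralog is described beside its parent, and up to 4 genes of each other list are named by smallest adjusted p in the 102xPR response. Other members, such as those whose call changed with the set term or that were thinly counted, were named after their values were seen. Coordinates and start sequences are from RefSeq tables of GRCh38.p14. Coordinates were matched for 85 members and a promoter for 68. The values of some members and list genes are not reported here by name.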

Additional observations from a re-analysis of the deposited data

Results flagged for a closer look

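The difference between the responses to induction was itself past the threshold (edgeR, adjusted p below 0.05, without the library-set term) for 45 of the 82 members tested when the 102xPR line was set against the ChFP line and for 40 against the poly-adenylate line. Over all genes 58.3% and 58.4% passed, shares no smaller than those of the members. The 10 core genes and 4 paralogs that passed in both, with and without the library set as a term, are given here as the 102xPR minus ChFP and the 102xPR minus poly-adenylate log2 difference. Among 40S genes RPS16 had -0.30 and -0.37, RPS21 -1.11 and -1.05, RPS23 -0.54 and -0.49, RPS25 -0.59 and -0.55, RPS28 -0.37 and -0.36, and RPS29 -0.96 and -0.92. Among 60S genes RPL6 had 0.22 and 0.22, RPL10 -0.88 and -0.81, RPL11 0.31 and 0.30, and RPLP2 -1.0 and -0.96. Of the paralogs, RPL7L1 had 0.32 and 0.22, RPL22L1 -1.18 and -1.07, RPL36AL -0.37 and -0.39, and RPL39L -0.58 and -0.60. Both differences use the same 102xPR libraries. The part of the library sets in these differences was not tested beyond the values with the set as a term.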

How the results depend on the processing

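In the 102xPR response the number of core genes that rose (4 in the report) was 7 with library totals and 1 within the set of 10, and the number that fell (32) was 21 within the set of 10. For the difference from ChFP the 35 core genes that were lower became 11 with the set as a term, and for the difference from poly-adenylate the 28 became 12 with that term, while the 8 that were higher became 4 with no filter. DESeq2 called 1 core gene as risen in the poly-adenylate response, where edgeR called 0. In the ChFP response 1 paralog was called by DESeq2, 1 with the replicate block and 1 with only the lines compared. The share of counts moved to -0.45 points in the poly-adenylate line within the set of 10 and to 0.033 in the ChFP line within the set of 8. With the set as a term the difference from ChFP turned its sign for RPL35A (0.00071), RPL37A (0.040), RPS3A (0.017) and RPS24 (-0.0016), and that from poly-adenylate for RPL41 (-0.00090), RPS12 (0.020) and RPS27A (0.051). The cause was not tested.

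Leaving out 1 replicate at a time gave 2 to 7 core genes that rose and 21 to 35 that fell in the 102xPR response, 0 to 12 that rose and 0 that fell in the poly-adenylate response, and 0 to 3 that rose and 0 to 4 that fell in the ChFP response. It gave 4 to 10 higher and 23 to 38 lower against ChFP, 4 to 10 higher and 23 to 39 lower against poly-adenylate, and 0 in the difference of those lines. The share difference ranged from -0.55 to -0.19 points in the 102xPR, 0.034 to 0.57 in the poly-adenylate and 0.36 to 0.70 in the ChFP line.

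With the replicate block 4 core genes rose and 32 fell in the 102xPR response, 4 were higher and 37 lower against ChFP, and 6 higher and 28 lower against poly-adenylate. Same-numbered libraries of a line deviated together with correlations of 0.0021 to 0.17, not all above 0.1 in any line. These values cannot decide whether the numbers pair the libraries, since some same-numbered libraries lie in different sets.

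The main limits are the library sets, which no label explains and which are unevenly spread over the groups, 3 libraries per group of unstated origin, and 6 core genes with few assigned reads.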
